A study of Homo sapiens with 6 samples.

Results

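The genes described here code for 10 secreted glycoproteins of the extracellular matrix: fibronectin (FN1), tenascin-C (TNC), thrombospondin 1 and 2 (THBS1, THBS2), SPARC, the fasciclin-domain proteins periostin (POSTN) and TGF-beta-induced protein (TGFBI), fibrillin 1 (FBN1), and fibulin 1 and 2 (FBLN1, FBLN2). They were chosen by name from the 60617 gene IDs of the RNA-seq files, and all 10 were found. Expression was compared in 6 libraries of 1205Lu, a human melanoma cell line. The resistant lines PBRT16 and PBRT15 (paradox breaker resistant tumor, 2 libraries each) are single lines derived from tumors, which the paper labels as in vivo lines. They were kept in 500 nM PLX8394, a BRAF inhibitor. The 1205Lu TR parental cells (2 libraries) were sensitive to the drug and received DMSO, the vehicle. The study's methods describe them as cells modified to carry a GAL4-ELK1 reporter. Cells of every group grew in the same medium of MCDB153 and L-15 with low serum and insulin. Line, origin in a tumor and drug change together, so their parts in any difference from parental cells cannot be told apart. Whether both libraries of a line stem from different cultures is not stated in the sources used here. The p-values therefore rest on the spread between the samples alone, and that spread may be technical.

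Fibronectin is assembled by cells into fibrils, to which integrins attach. Tenascin-C, the thrombospondins, SPARC and periostin are called matricellular proteins, because they modulate how cells adhere to the matrix and respond to growth factors rather than bear load. Fibrillin 1 polymerizes into microfibrils, the scaffold of elastic fibers and a store of latent TGF-beta, and fibulins bind to these fibers. In melanoma, the dedifferentiated, invasive state is known for high expression of many of these genes.

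The deposited values are a normalized signal per gene that was already on a common scale, with totals between 27877963 and 29580752 per library. The 10 genes took 1.48% and 1.88% of the total in PBRT16 cells, 0.987% and 1.05% in PBRT15 cells, and 0.812% and 0.844% in parental cells. The number of reads per library is unknown, so no counting interval is given. SOX10, a transcription factor of the melanocyte lineage, had values of 1.49 and 0.778 in PBRT16, 0 and 0.791 in PBRT15, and 4360 and 4103 in parental cells, whereas TYR, which encodes the pigment enzyme tyrosinase, was listed at 0 in all 6 libraries. The pigment cell gene MLANA lay between 3.72 and 16.2 in all of them, so TYR and MLANA were nearly absent also from the parental line. MITF, the central transcription factor of pigment cells, went the other way from SOX10, with 2209 and 2159 in PBRT16, 823.5 and 927 in PBRT15, and 109 and 113 in parental cells. Of the 13 markers of melanocytes and melanoma, 10 were tested, of which 2 rose (MITF and TFAP2A) and 3 fell in each resistant line.

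The promoters of 3 genes are shown because all 3 had higher values in both resistant lines and each window holds the letters GGAATG, a site known to bind TEAD transcription factors. The shared site was thus fixed by the choice, and THBS2 was not called in PBRT15. The sequences are 300-base RefSeq windows around the annotated transcription start, on GRCh38.p14, read 5′ to 3′ on the strand of the gene. Capitals mark GGAATG or its reverse complement CATTCC and, in THBS2, also the TATA box TATAAA.
THBS1 (chr15:39580829-39581128, plus strand): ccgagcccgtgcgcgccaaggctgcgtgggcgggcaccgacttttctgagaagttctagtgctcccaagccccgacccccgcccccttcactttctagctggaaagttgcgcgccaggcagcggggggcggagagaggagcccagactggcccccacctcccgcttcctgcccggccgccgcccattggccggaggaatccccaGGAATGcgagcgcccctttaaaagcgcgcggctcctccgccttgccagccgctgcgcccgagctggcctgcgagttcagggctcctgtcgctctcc
THBS2 (chr6:169253797-169254096, minus strand): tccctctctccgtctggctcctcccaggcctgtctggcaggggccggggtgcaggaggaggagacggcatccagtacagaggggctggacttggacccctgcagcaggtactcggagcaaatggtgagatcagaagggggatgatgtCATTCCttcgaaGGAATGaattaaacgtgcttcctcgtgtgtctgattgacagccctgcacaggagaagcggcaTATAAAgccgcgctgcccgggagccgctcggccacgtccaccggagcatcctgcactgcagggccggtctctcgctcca
FBN1 (chr15:48644921-48645220, minus strand): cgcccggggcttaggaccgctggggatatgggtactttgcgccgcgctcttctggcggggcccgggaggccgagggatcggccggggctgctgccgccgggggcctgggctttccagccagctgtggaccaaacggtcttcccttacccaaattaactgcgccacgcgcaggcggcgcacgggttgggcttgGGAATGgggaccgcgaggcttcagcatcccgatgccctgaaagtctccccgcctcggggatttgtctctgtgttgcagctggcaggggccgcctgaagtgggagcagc
In THBS1 the site lies at -46 to -41 from the start. THBS2 has a pair of sites in opposite orientation, at -103 to -98 and -91 to -86, followed by the TATA box at -29 to -24. The FBN1 site lies at -58 to -53. For both THBS2 and FBN1 the RefSeq start is inside the GENCODE gene span. SPARC, which was not called in any comparison, also has a site, at -17 to -12, whereas FBLN1, which rose in both resistant lines, has none in its window. Of the 35116 RefSeq promoters of the same length, 14% hold GGAATG on either strand and 11.5% hold TATAAA, so neither is rare. The AP-1 site TGANTCA (7.71% of all promoters) was found only in POSTN, and the CArG box (1.29%), the SMAD element GTCTAGAC (0.202%) and the SOX site AACAATG (3.33%) were in none of the windows of the 10 genes. The E-box CANNTG and the GC box GGGCGG, not in capitals here, are common, in 68.7% and 45% of all promoters. A match is a stretch of letters and not a measured binding site.

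A gene entered the test with 2 or more libraries at a value of 10 or above and a summed value of 15 or above. Of the 10 genes, 8 passed, all but POSTN and FBLN2. Each gene was fitted with limma on log2(value + 1), on which fold changes are given, and p-values were adjusted over all 16565 tested genes. Following the thresholds of the study, a gene is said to have risen or fallen where the adjusted p did not exceed 0.05 and the fold was 2 or more. In PBRT16 against parental cells, 5 of the 8 genes rose and 1 fell, while 13.1% of all tested genes rose and 9.95% fell (23.1% in either direction). In PBRT15 against parental cells, 3 rose and 1 fell, with 13.8% of all tested genes rising and 9.85% falling (23.6% together). In PBRT16 against PBRT15, 2 rose and 1 fell, with 4.49% and 4.77% of all tested genes (9.26% together). Both resistant lines are set against the same 2 parental libraries.

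**Figure D1:**
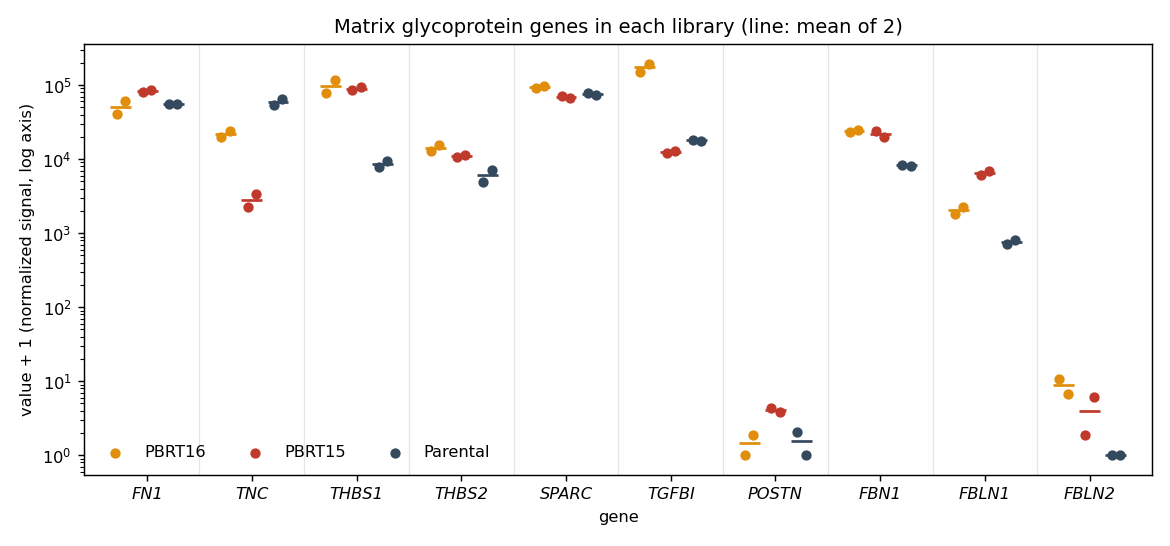
Value + 1 of the 10 glycoprotein genes in each library (normalized signal, log axis), with a point per library and a line at the mean of the 2 libraries of PBRT16, PBRT15 and parental cells. TNC is highest in parental cells, TGFBI is highest in PBRT16, FBLN1 is highest in PBRT15, and POSTN and FBLN2 have values below 10, before 1 is added, in all 6 libraries.

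FN1 (ENSG00000115414.20, GRCh38 chr2:215360440-215436073, minus strand), the gene of fibronectin, was abundant in every library and was not called in any comparison. Its values were 40549 and 60718 in PBRT16, 80548 and 86842 in PBRT15, and 55900 and 55098 in parental cells. Both PBRT15 libraries lay above all others, and the PBRT16 libraries lay on either side of the parental ones. The difference of PBRT16 from parental cells was -0.16 (SE 0.22, 95% interval -0.72 to 0.40, adjusted p = 0.582). PBRT15 differed from parental cells by 0.59 (SE 0.22, interval 0.03 to 1.15, adjusted p = 0.0859) and PBRT16 from PBRT15 by -0.75 (interval -1.31 to -0.19, adjusted p = 0.0819), and both of these intervals reach past 2-fold. The adjusted p for PBRT15 against parental cells ranged from 0.0327 to 0.246 over the other settings tried.

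TNC (ENSG00000041982.16, chr9:115019575-115118207, minus strand) was the only one of the 8 genes that fell in both resistant lines. Tenascin-C is a large oligomeric protein of wound beds and tumor stroma that interferes with adhesion to fibronectin. TNC had values of 20098 and 23600 in PBRT16, 2255 and 3363 in PBRT15, and 53476 and 64134 in parental cells. The 3 groups did not overlap, and PBRT15 lay far below the other two. In PBRT15, TNC was 21.3-fold lower than in parental cells (log2 fold change -4.41, SE 0.24, adjusted p = 0.000437). In PBRT16 it was 2.69-fold lower (log2 fold change -1.43, SE 0.24, adjusted p = 0.0101), a call that was lost without PBRT16 replicate 1 (-1.31, adjusted p = 0.0556) or without parental replicate 2 (-1.30, adjusted p = 0.0578). Between the resistant lines TNC was 7.91-fold higher in PBRT16 than in PBRT15 (2.98, SE 0.24, adjusted p = 0.00434). In bulk libraries, fewer cells that express a gene and less RNA per cell cannot be told apart.

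THBS1 (ENSG00000137801.11, chr15:39581079-39599466, plus strand) rose in both resistant lines by a similar factor. Thrombospondin 1 is a trimeric protein that binds CD47, CD36 and integrins and can release TGF-beta from its latent complex. Its values were 77170 and 118282 in PBRT16, 85736 and 93626 in PBRT15, and 7829 and 9439 in parental cells. All 4 resistant libraries were above both parental ones, and the PBRT15 values fell between those of PBRT16. The rise was 11.1-fold in PBRT16 (log2 fold change 3.47, SE 0.24, adjusted p = 0.000857) and 10.4-fold in PBRT15 (3.38, SE 0.24, adjusted p = 0.000913). PBRT16 differed from PBRT15 by 0.09, with an interval of -0.53 to 0.72 (adjusted p = 0.829).

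THBS2 (ENSG00000186340.15, chr6:169215780-169254050, minus strand), whose protein shares the trimeric architecture of thrombospondin 1, differed less. It had values of 12837 and 15330 in PBRT16, 10541 and 11470 in PBRT15, and 4958 and 7221 in parental cells. The groups did not overlap, although the parental libraries were far apart. THBS2 rose 2.34-fold in PBRT16 (1.23, SE 0.22, adjusted p = 0.0125). In PBRT15 the estimate was 1.84-fold (0.88, SE 0.22, adjusted p = 0.0326), below the fold threshold. Both outcomes turned on single libraries. The call in PBRT16 was lost without PBRT16 replicate 2 (1.10) or without parental replicate 1 (0.96). In PBRT15, which was not called, THBS2 passed both thresholds without parental replicate 2 (1.15). PBRT16 differed from PBRT15 by 0.35 (interval -0.22 to 0.93, adjusted p = 0.336).

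The balance of the thrombospondins can be given per transcript length. As value per kilobase of the longest GENCODE v44 transcript, the ratio of THBS1 to THBS2 was 4.48 and 5.76 in PBRT16, 6.07 and 6.09 in PBRT15, and 1.18 and 0.975 in parental cells. Thus the 2 genes were at about equal level per length in parental cells, and THBS1 predominated in both resistant lines.

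SPARC (ENSG00000113140.11, chr5:151661096-151686975, minus strand) encodes a collagen-binding matricellular protein, also known as osteonectin. It was highly expressed in all 6 libraries and was not called in any comparison. Its values were 92552 and 96480 in PBRT16, 70894 and 67174 in PBRT15, and 77554 and 72761 in parental cells. PBRT16 was highest and PBRT15 lowest, with no overlap between groups. The differences were small: 0.33 for PBRT16 against parental cells (SE 0.11, interval 0.04 to 0.62, adjusted p = 0.0727), -0.12 for PBRT15 against parental cells (SE 0.11, adjusted p = 0.424) and 0.45 for PBRT16 against PBRT15 (SE 0.11, interval 0.16 to 0.75, adjusted p = 0.0593).

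TGFBI (ENSG00000120708.17, chr5:136028988-136063818, plus strand) separated the resistant lines from each other more than any other of the 8 genes. TGF-beta-induced protein carries fasciclin domains and links collagens to integrins. Its values were 150660 and 195144 in PBRT16, 11913 and 12684 in PBRT15, and 17951 and 17736 in parental cells. Both PBRT16 libraries were far above the rest, and both PBRT15 libraries were below the parental ones. TGFBI rose 9.61-fold in PBRT16 against parental cells (3.26, SE 0.16, adjusted p = 0.00035) and was 13.9-fold higher in PBRT16 than in PBRT15 (3.80, SE 0.16, adjusted p = 0.000796). PBRT15 differed from parental cells by -0.54 (SE 0.16, interval -0.96 to -0.12, adjusted p = 0.0516), which was not called.

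POSTN (ENSG00000133110.15, chr13:37562583-37598844, minus strand), the gene of the related fasciclin-domain protein periostin, had the lowest values together with FBLN2. It had values of 0 and 0.897 in PBRT16, 3.39 and 2.86 in PBRT15, and 1.07 and 0 in parental cells. It was too low to be tested, and its levels do not show that it is absent from the cells.

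FBN1 (ENSG00000166147.13, chr15:48408313-48645721, minus strand), the gene of fibrillin 1, rose in both resistant lines. It had values of 23205 and 24745 in PBRT16, 24068 and 19851 in PBRT15, and 8431 and 8017 in parental cells. All resistant libraries lay above both parental ones, and the PBRT16 and PBRT15 libraries overlapped. The rise was 2.91-fold in PBRT16 (1.54, SE 0.14, adjusted p = 0.00181) and 2.66-fold in PBRT15 (1.41, SE 0.14, adjusted p = 0.0023). The difference of PBRT16 from PBRT15 was 0.13 (interval -0.24 to 0.50, adjusted p = 0.569).

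FBLN1 (ENSG00000077942.19, chr22:45502238-45601135, plus strand) rose in both lines, and more in PBRT15. Fibulin 1 is a calcium-binding glycoprotein that associates with fibronectin and elastic fibers. Its values were 1822 and 2238 in PBRT16, 6144 and 6874 in PBRT15, and 713.5 and 799.3 in parental cells. The groups were ordered PBRT15, PBRT16, parental, without overlap. FBLN1 rose 2.67-fold in PBRT16 (1.42, SE 0.16, adjusted p = 0.00314) and 8.6-fold in PBRT15 (3.10, SE 0.16, adjusted p = 0.000381), and was 3.22-fold lower in PBRT16 than in PBRT15 (-1.69, SE 0.16, adjusted p = 0.00662). FBLN2 (ENSG00000163520.14, chr3:13549125-13638422, plus strand) had 9.77 and 5.79 in PBRT16 cells and 0.893 and 5.04 in PBRT15 cells. Both parental libraries list it at 0. It was not tested, and with no filter on low values it was called in PBRT16 against parental cells (adjusted p = 0.0366) but not in PBRT15 (adjusted p = 0.137).

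**Figure D2:**
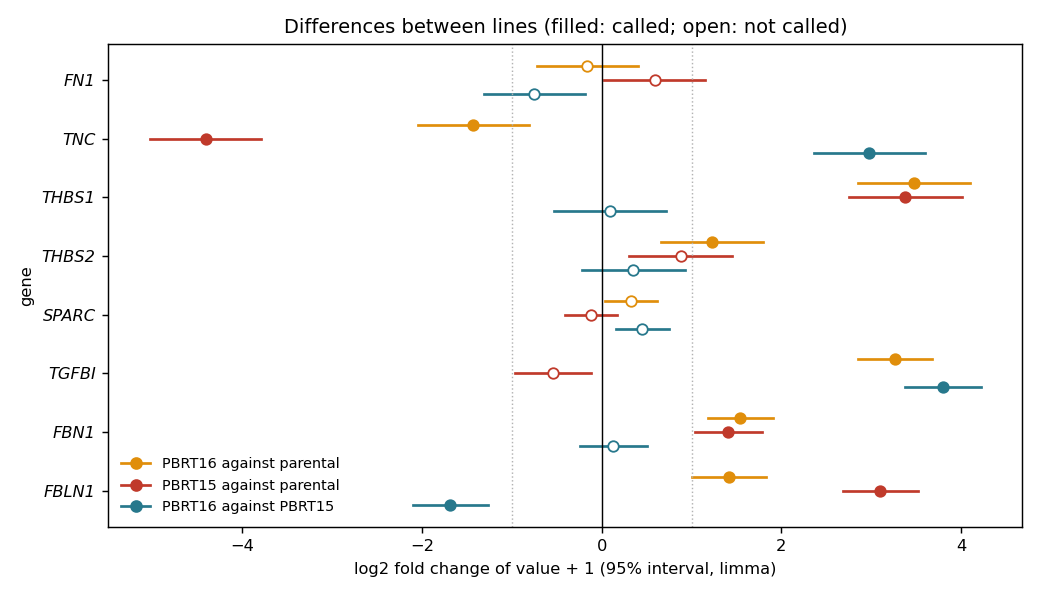
Log2 fold change of value + 1 with its 95% interval (limma, 2 libraries per group) for the 8 tested genes in PBRT16 against parental cells, PBRT15 against parental cells and PBRT16 against PBRT15; filled points were called and dotted lines mark a 2-fold difference. THBS1 lies at 3.47 and 3.38 in PBRT16 and PBRT15, whereas TNC lies at -1.43 and -4.41 and TGFBI at 3.26 and -0.54.

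Among lists of markers of other cell types, the sum of the fibroblast list followed the order of FBLN1, while its single markers differed. The 12 fibroblast markers summed to between 18969 and 25271 in PBRT16, between 136505 and 146898 in PBRT15, and between 6098 and 7054 in parental cells. Of the 9 that were tested, 3 rose and 1 fell in PBRT16 and 7 rose in PBRT15, and in PBRT16 against PBRT15 6 fell. Among all tested genes, 23.1%, 23.6% and 9.26% were called in these comparisons, in either direction and in that order. COL1A1, a chain of type I collagen, had 9942 and 14432 in PBRT16, 60705 and 67057 in PBRT15, and 13.9 and 32.7 in parental cells. THY1, a surface marker of fibroblasts, had 8.14 and 6.84 in PBRT16, 19573 and 19758 in PBRT15, and 0 and 4.46 in parental cells. PDPN was at 0 in PBRT15 and DPT was at 0 in parental cells, and no fibroblast marker was at 0 in both PBRT16 libraries. By its sum the list had the order of FBLN1 and not that of TGFBI or TNC, and its part in these results was not tested. COL1A1 and DCN had that order. THY1 was highest in PBRT15, but under 10 in PBRT16 and parental cells, and was not called in PBRT16 (1.86, adjusted p = 0.123). PDGFRB was highest in PBRT16 (5447 and 6253) and PDGFRA lowest there (3324 and 4339). FAP was the marker that fell in PBRT16 (-2.98, adjusted p = 0.0393). It had 0.603 and 5.04 there, 192 and 190 in PBRT15, and 41.5 and 13.1 in parental cells. COL1A2 had 19.9 and 15.4 in PBRT16, near the 14 and 23.2 of parental cells, and 38540 and 41287 in PBRT15. The 8 endothelial markers summed to between 88 and 97.5 in PBRT16, between 273 and 306 in PBRT15, and between 24.5 and 44.3 in parental cells. The PBRT15 sum was carried by TEK (mean 228.9), while VWF (-1.61) and KDR (-1.78) fell in PBRT15, to values under 10. ERG was the highest marker in PBRT16 (mean 56.56) and rose in both lines (4.00 in PBRT16 and 3.34 in PBRT15). The 9 pericyte and smooth muscle markers summed to between 12966 and 14064 in PBRT16, between 7111 and 7899 in PBRT15, and between 7342 and 7743 in parental cells. The PBRT16 sum was carried by CSPG4 (5398 and 6111) and MCAM (5407 and 5192), which are also on the melanoma list. NOTCH3 rose in both lines, while ACTA2 had 71.1 and 81.1 in PBRT16, 191 and 316 in PBRT15, and 118 and 114 in parental cells. Keratinocyte markers summed to between 369 and 375 in PBRT16, between 326 and 392 in PBRT15, and between 541 and 645 in parental cells, and 2 of the 3 that were tested fell in each resistant line. CD68, a lysosomal protein abundant in macrophages, made up most of the leukocyte sum and rose in both lines, as THBS1 and FBN1 did (1.35 in PBRT16, adjusted p = 0.0229, and 1.27 in PBRT15, adjusted p = 0.0273). The part of these markers in the results was not tested.

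Set in order by value per kilobase, the genes ranked differently in each line. In PBRT16, TGFBI led with 37096 ± 6749 per kilobase (SD, n = 2), ahead of SPARC with 27388 ± 805 and THBS1 with 12547 ± 3732. FN1 was next with 5521 ± 1555, and TNC (2570 ± 291) and THBS2 (2424 ± 303) overlapped. FBN1 (2065 ± 93.8) and FBLN1 (698.9 ± 101) followed, with FBLN2 and POSTN under 2 per kilobase.

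In PBRT15, SPARC led with 20004 ± 762 per kilobase, followed by THBS1 with 11514 ± 716 and FN1 with 9126 ± 485. TGFBI (2639 ± 117) and FBLN1 (2241 ± 178) lay apart from each other, THBS2 (1894 ± 113) and FBN1 (1892 ± 257) overlapped, and TNC came after them with 330.5 ± 92.2. In parental cells, SPARC (21778 ± 982) was followed by TNC (6918 ± 887), FN1 (6052 ± 61.8) and TGFBI (3828 ± 32.7). THBS1 (1108 ± 146) and THBS2 (1048 ± 275) overlapped there, and FBN1 (708.4 ± 25.3) and FBLN1 (260.5 ± 20.9) were lower. TNC thus took place 5 in PBRT16, 8 in PBRT15 and 2 in parental cells.

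The same scale places the genes among all protein-coding genes with a mean of at least 10. Of 12875 such genes in PBRT16, 12875 in PBRT15 and 12716 in parental cells, SPARC ranked 25, 44 and 37. TGFBI ranked 21 in PBRT16, 512 in PBRT15 and 315 in parental cells, and THBS1 ranked 82, 86 and 1329. TNC ranked 519 in PBRT16, 4362 in PBRT15 and 155 in parental cells. These ranks are a description and carry no test.

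**Figure D3:**
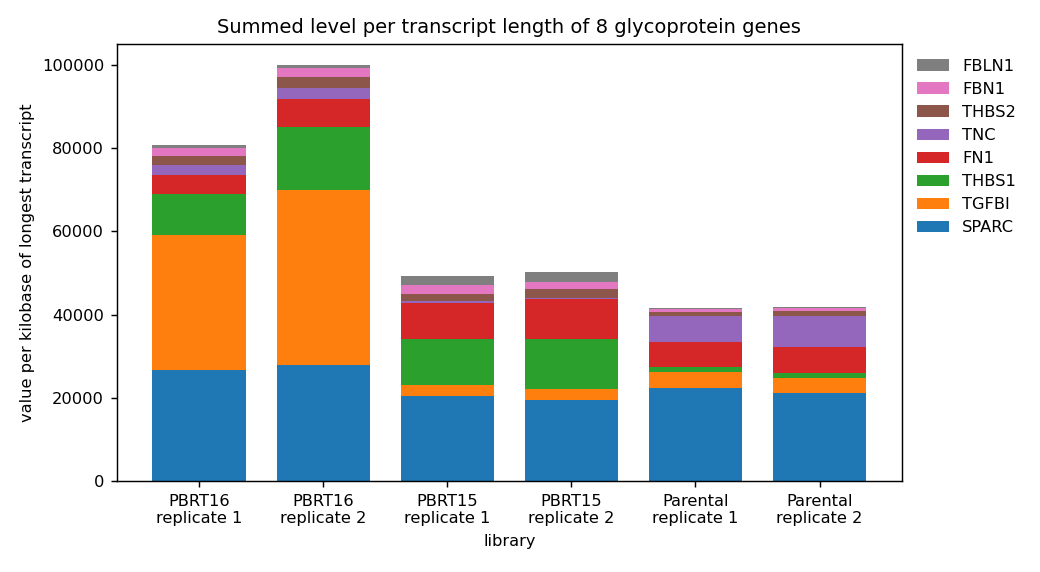
Value per kilobase of the longest transcript, stacked for the 8 tested glycoprotein genes in each library. With POSTN and FBLN2, which are too low to draw, the values summed to 80673 and 99949 in PBRT16, 49159 and 50125 in PBRT15, and 41541 and 41862 in parental cells; TGFBI fills much of the PBRT16 bars, THBS1 is large in both resistant lines, and TNC is a visible band in parental cells.

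As shares of this summed value per kilobase of the 10 genes, TGFBI took 40.1% and 41.9% in PBRT16, 5.2% and 5.43% in PBRT15, and 9.27% and 9.09% in parental cells. THBS1 took 12.3% and 15.2% in PBRT16, 22.4% and 24% in PBRT15, and 2.42% and 2.89% in parental cells. The TNC share was 2.93% and 2.78% in PBRT16, 0.54% and 0.789% in PBRT15, and 15.1% and 18% in parental cells. The replicates of a line were close in their shares, and each line had its own mixture. PBRT16 was richest in TGFBI and SPARC, PBRT15 in SPARC, THBS1 and FN1, and parental cells in SPARC, TNC and FN1.

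Ratios between genes of 1 library, which do not depend on its scaling, showed the same contrast. The ratio of TGFBI to TNC per kilobase was 13.7 and 15.1 in PBRT16, 9.63 and 6.88 in PBRT15, and 0.612 and 0.504 in parental cells. In PBRT16, TGFBI was higher and TNC lower than in parental cells. In PBRT15, TNC was lower and TGFBI was not called. The ratio of FN1 to TNC was 1.87 and 2.38 in PBRT16, 33.1 and 23.9 in PBRT15, and 0.969 and 0.796 in parental cells. FBLN1 over FBN1 was 0.314 and 0.362 in PBRT16, 1.02 and 1.38 in PBRT15, and 0.338 and 0.399 in parental cells, so that PBRT16 overlapped the parental ratio and PBRT15 did not.

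The libraries of PBRT16 differed from each other in 1 direction over these genes. In PBRT16, all 8 tested genes were higher in replicate 2 than in replicate 1, with a median log2 difference of 0.28 (range 0.06 to 0.62), while 50.9% of all tested genes were higher in replicate 2 and their median was 0.01. In PBRT15, 6 of the 8 genes were higher in replicate 2 (median 0.12), and in parental cells 4 of 8 (median 0.07). The cause was not tested.

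Of other matricellular and fibrillar glycoproteins, 36 were listed and 24 tested. In PBRT16 against parental cells 13 rose and 3 fell, with a median log2 fold change of 1.10, and in PBRT15 15 rose and 3 fell, with a median of 1.94. The median of all tested genes was 0.00 in both. As a scale for these counts, rises made up 13.1% of all tested genes for PBRT16 and 13.8% for PBRT15. Falls made up 9.95% for PBRT16 and 9.85% for PBRT15. CCN4, a matricellular protein induced by WNT signaling, had values of 6503 and 9605 in PBRT16, 15011 and 18739 in PBRT15, and 85.7 and 111 in parental cells (log2 fold change 6.33 in PBRT16, adjusted p = 0.000214, and 7.41 in PBRT15, adjusted p = 0.000155). In PBRT16, the related CCN5 also rose (6.79, SE 0.93, adjusted p = 0.00563), with 161 and 432 against at most 2.55 in parental cells and at most 3.77 in PBRT15. MATN2, the adaptor protein matrilin 2, had 3700 and 4318 in PBRT16, 1085 and 999.6 in PBRT15, and 148 and 88.8 in parental cells. AEBP1, a collagen-binding protein, had 10.2 and 2.15 in PBRT16, 1275 and 1209 in PBRT15, and 8.89 and 8.26 in parental cells, and rose in PBRT15 (7.02, SE 0.60, adjusted p = 0.00144). FNDC1 also rose in PBRT15 (4.31, SE 0.30, adjusted p = 0.000883), and neither AEBP1 (-0.69, adjusted p = 0.397) nor FNDC1 (-0.30, adjusted p = 0.46) was called in PBRT16. NID1, the basement membrane linker nidogen 1, fell in PBRT16 (-1.14, SE 0.12, adjusted p = 0.00237) and was below the fold threshold in PBRT15 (-0.49, adjusted p = 0.0265), and SRPX2 fell in PBRT15 (-1.06, SE 0.21, adjusted p = 0.0165) and was not called in PBRT16 (-0.46, adjusted p = 0.144).

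Among 24 other elastic fiber and microfibril genes, 18 were tested. In PBRT16 8 rose and 2 fell (median 0.76), and in PBRT15 10 rose and 2 fell (median 1.81). The scale is that given for the other glycoproteins. PBRT16 against PBRT15 had none that rose and 4 that fell. In that comparison 4.49% of all tested genes were called higher and 4.77% lower. FBLN5, a fibulin needed for elastic fiber assembly, had values of 413.9 and 336.8 in PBRT16, 1362 and 1196 in PBRT15, and 2.06 and 2.74 in parental cells. Like FBLN1, FBLN5 was highest in PBRT15 and lowest in parental cells, with log2 fold changes of 6.79 in PBRT16 and 8.56 in PBRT15 (adjusted p = 7.84e-05 and 5.46e-05). FBLN7 rose in PBRT16 (2.11, SE 0.25, adjusted p = 0.00367) and in PBRT15 (3.11, SE 0.25, adjusted p = 0.00123), and EMILIN2, an elastin-microfibril interface protein, rose in PBRT16 by 2.53 and in PBRT15 by 3.28 on the log2 scale. HMCN1, which encodes the giant fibulin family member hemicentin 1, had 387.9 and 214.8 in PBRT16, 254.2 and 294.3 in PBRT15, and 15493 and 14265 in parental cells, a fall in both lines (log2 fold changes -5.68 and -5.76). MFAP2, a partner of fibrillin 1 in microfibrils, had 0.865 and 0.818 in PBRT16, 46.4 and 79.3 in PBRT15, and 289 and 247.7 in parental cells. MFAP2 therefore fell in both lines (log2 fold changes -7.19 and -2.12, adjusted p = 0.000175 and 0.00465) while FBN1 rose.

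**Figure D4:**
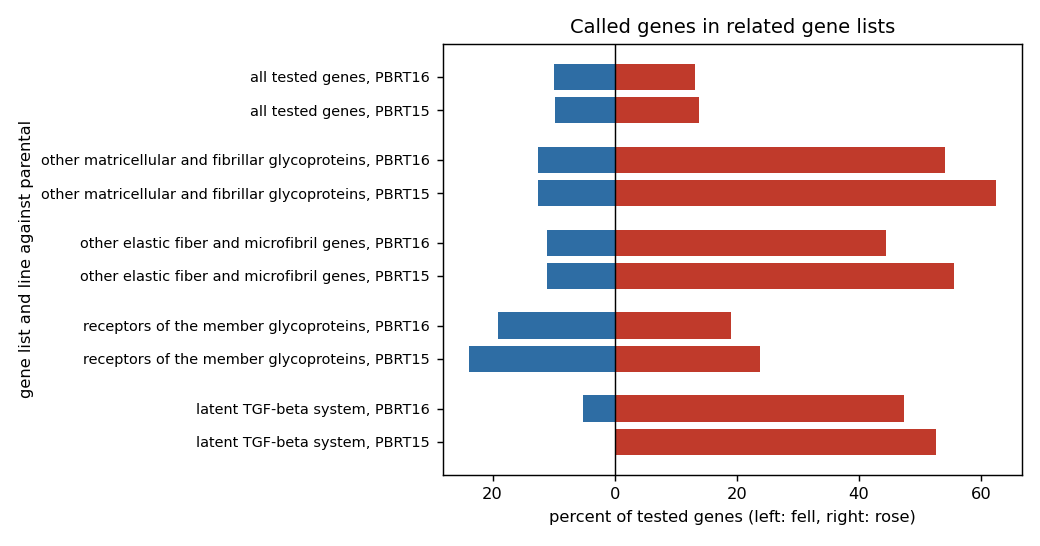
Percent of tested genes that rose (right) and fell (left) against parental cells in PBRT16 and PBRT15, for all tested genes and 4 related gene lists. Of all tested genes 13.1% rose in PBRT16 and 13.8% in PBRT15; the bars to the right are longer for the other glycoproteins, the elastic fiber genes and the latent TGF-beta system, and nearer to that of all genes for the receptors.

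Receptors of these glycoproteins changed in both directions, each at a larger share than among all tested genes. Of 21 tested receptor genes 4 rose and 4 fell in PBRT16 (median -0.29), and 5 rose and 5 fell in PBRT15 (median 0.25), where 13.1% and 9.95% of all tested genes rose and fell in PBRT16 and 13.8% and 9.85% in PBRT15. ITGA8, an integrin subunit that pairs with ITGB1 to bind fibronectin and tenascin-C, had values of 1114 and 946.9 in PBRT16, 7664 and 9085 in PBRT15, and 47 and 22.5 in parental cells (log2 fold change 4.94 in PBRT16, adjusted p = 0.00098, and 7.96 in PBRT15, adjusted p = 0.000281). CD47, a receptor of thrombospondin 1, had 4767 and 4844 in PBRT16, 3687 and 3560 in PBRT15, and 1530 and 1505 in parental cells, and rose in PBRT16 (1.66, SE 0.11, adjusted p = 0.000666) and in PBRT15 (1.26, SE 0.11, adjusted p = 0.00143). LRP1, an endocytic receptor that clears thrombospondins, rose in PBRT16 (1.78, SE 0.19) and PBRT15 (2.81, SE 0.19). SDC1, the heparan sulfate proteoglycan syndecan 1, rose in PBRT15 (1.35, SE 0.24, adjusted p = 0.012) and was not called in PBRT16 (0.71, adjusted p = 0.0723).

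Of the named receptors that bind tenascin-C, ITGA8 rose in both lines and was highest in PBRT15, where TNC was lowest, whereas PTPRZ1 and ITGA9 fell. PTPRZ1, a receptor phosphatase that binds tenascins, had values of 3.6 and 0.773 in PBRT16, 3.96 and 7.45 in PBRT15, and 7152 and 5906 in parental cells. ITGA9, the subunit of a tenascin-C-binding integrin, had 49.2 and 19.4 in PBRT16, 66 and 70.3 in PBRT15, and 3607 and 2969 in parental cells. Both were high in parental cells and low in both resistant lines. Their log2 fold changes were -11.15 and -6.68 in PBRT16 (adjusted p = 0.000301 and 0.000723) and -9.97 and -5.57 in PBRT15 (adjusted p = 0.000394 and 0.0012). ITGB8, the subunit of an integrin that activates latent TGF-beta, had 3712 and 5976 in PBRT16, 741.1 and 1612 in PBRT15, and 17580 and 14625 in parental cells, and fell in both lines (-1.77, adjusted p = 0.0317, and -3.87, adjusted p = 0.00325).

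In the latent TGF-beta system, which FBN1 microfibrils and THBS1 act on, 19 of 21 genes were tested. In PBRT16 9 rose and 1 fell (median 0.96), and in PBRT15 10 rose and none fell (median 1.23). The shares of all tested genes are those given for the receptors. LTBP1, a latent TGF-beta binding protein, had values of 10874 and 9641 in PBRT16, 9470 and 7140 in PBRT15, and 1233 and 1550 in parental cells, and rose in PBRT16 (2.89, SE 0.21, adjusted p = 0.000903) and in PBRT15 (2.57, SE 0.21, adjusted p = 0.00122). The inhibitory SMAD6 rose in PBRT16 (3.53, SE 0.21) and PBRT15 (3.83, SE 0.21), and SMAD7 rose in PBRT16 (2.38, SE 0.19) and PBRT15 (2.70, SE 0.19). TGFBI, whose name comes from its induction by TGF-beta, rose in PBRT16 against parental cells and was not called in PBRT15, and was 13.9-fold higher in PBRT16 than in PBRT15. These lists were written with earlier results of the data known, so their counts are a description.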

How the data were processed

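Gene expression was measured by RNA-seq in 6 libraries, 2 for each of PBRT16, PBRT15 and parental cells, grouped by the GEO labels. The deposited values are a signal per gene that the authors had normalized; by the paper's methods and the submitters' processing notes, stranded paired-end reads were processed with STAR 2.6.1a, RSEM, Picard and DESeq2 on GRCh38 with GENCODE. That STAR version is from the notes; the paper names another. The normalization and the strand setting are not given in the sources used here. No single step turned the values into whole reads (6.86% to 43.3% of values under 50 were whole multiples of the commonest low value, within 0.01 of a step), so no count test was run, depth is unknown, and low values are imprecise. IDs were matched to GENCODE v44 without version (60357 of 60617); 45 pseudoautosomal IDs were left out.

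Values of at least 10 in at least 2 libraries with a total of at least 15 were required. The log2(value + 1) of 6 libraries was fitted with limma 3.58.1 in R 4.3.3 without a replicate block , with the groups as the only term (3 residual and 1.89 prior degrees of freedom), with Benjamini-Hochberg adjustment over 16565 genes. Levels per kilobase divide by the longest transcript, which leaves isoform use out of account. The steps were tested on simulated data. All 10 genes were named, and from each related list up to 3 rises and 3 falls per line with the largest folds among called genes with a mean of at least 100, of which most are given. The 10 genes, the lists and the marker lists were chosen with earlier results of these data known. Alternatives were pseudocounts of 0.5 and 5, 3 other scalings, 2 other filters, 4 libraries per fit, a replicate block, a spread that follows the expression level, no fold threshold, and leaving out each library.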

Additional observations from a re-analysis of the deposited data

Results flagged for a closer look

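For 3 of the genes the difference from parental cells was not the same in both resistant lines, by limma's test of PBRT16 against PBRT15, in which the shared parental libraries cancel. The log2 fold change in PBRT16 minus that in PBRT15 was 3.80 for TGFBI (adjusted p = 0.000796), 2.98 for TNC (adjusted p = 0.00434) and -1.69 for FBLN1 (adjusted p = 0.00662). TGFBI was higher than in parental cells in PBRT16 (3.26) and not called in PBRT15 (-0.54). TNC was lower in both lines (-1.43 in PBRT16 and -4.41 in PBRT15), and FBLN1 was higher in both (1.42 in PBRT16 and 3.10 in PBRT15). With 2 libraries per group, a single library that stands apart could not be tested for.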

How the results depend on the processing

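Of 408 recomputed values for the 8 tested genes (24 results under 17 settings each), 399 kept their direction and their side of the thresholds, 4 lost a call, 2 gained one and 3 changed sign. The sign changes were all of differences that were not called: FBN1 in PBRT16 against PBRT15 was -0.01 without PBRT15 replicate 2 (up to 0.27 without other libraries), FN1 in PBRT16 against parental cells was 0.13 without PBRT16 replicate 1 (down to -0.45), and THBS1 in PBRT16 against PBRT15 was -0.22 without PBRT16 replicate 2 (up to 0.40). The lost and gained calls were those of TNC and THBS2 given above and that of THBS2 in PBRT15 with no fold threshold. Many of the 408 fold changes could not move, so the 399 is no measure of robustness. The other filters, the 4-library fits, the replicate block and the spread by expression level leave fold changes as they were. So does leaving out a library of the group not compared, and the setting with no fold threshold reused the main fit. With no fold threshold, 6643 of all genes were called in PBRT16, 6800 in PBRT15 and 2612 in PBRT16 against PBRT15, compared with 3826, 3914 and 1534. Leaving out 1 library, and with it a sample of the fit, gave between 761 and 1090 calls for PBRT16 against PBRT15 (761 and 810 without PBRT16 replicate 1 and 2, 831 and 1009 without PBRT15 replicate 1 and 2, 1090 without either parental library).

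The replicate numbers were not used to pair the samples. Deviations of same-numbered libraries correlated at 0.135 between PBRT16 and PBRT15, 0.0365 between PBRT16 and parental cells and 0.0197 between PBRT15 and parental cells. These correlations cannot tell whether same-numbered libraries shared a day or batch. With the replicate block 6, 4 and 3 of the 8 genes were called in PBRT16 against parental cells, PBRT15 against parental cells and PBRT16 against PBRT15, as without it, and 3798, 3850 and 1355 of all genes. Unknown depth limits the low values of POSTN and FBLN2 most.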
